A study of Homo sapiens with 16 samples.

Results

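The histone genes described here are those whose probe sets carry a single platform symbol of the replication-dependent families, with numbered symbols that begin H1-, H2AC, H2BC, H3C or H4C. They are 41 of the 11963 genes with a single-symbol probe set, and 42 probe sets read them, since H2BC5 has 2. The members are 7 linker histone H1 genes, 8 H2A genes, 11 H2B genes with 12 probe sets, 7 H3 genes and 8 H4 genes. Of these genes, 38 lie on chromosome 6, 2 (H2BC21 and H2AC25) on chromosome 1 and 1 (H1-10) on chromosome 3 (GRCh38.p14). The symbol rule also takes H1-10, a replication-independent linker histone, and H1-6, the testis linker histone, so the name of the family does not hold for these members.

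Histones are the proteins around which nuclear DNA is wound: H2A, H2B, H3 and H4 form the nucleosome core, and H1 binds the linker DNA between cores. Most replication-dependent histone genes are transcribed in S phase from clustered, intronless genes, and their mRNAs end in a stem-loop bound by SLBP instead of a poly(A) tail. Some of them, H2BC21, H2BC12, H2BC5, H2AC6 and H1-2 among them, are also known to give polyadenylated mRNAs, which can be made outside S phase and in differentiating cells.

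Expression was measured on 16 Affymetrix U133 2.0 arrays in 8 groups of 2 arrays each, from 4 breast cell lines. The invasive lines MDA-MB-231 and LM24175 carried a stably introduced construct expressing RECK, a protein of the cell surface that restrains matrix metalloproteinases, or the empty vector (EV). The poorly invasive lines Hs343T and Hs606T had received an siRNA against RECK (siRECK) or a scrambled siRNA (siSCR). All samples were total RNA of the same kit, and the labels do not say that arrays of a group are from different cultures. The p-values therefore measure only the spread between arrays, which may be technical. The labels give no clone, dose or time for either treatment.

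Values are log2 expression as deposited. RECK itself went against the siRNA labels: in Hs343T its mean level was 5.79 ± 0.39 (SD, n = 2) under the siSCR label and 11.27 ± 0.05 under the siRECK label, and in Hs606T it was 8.69 ± 0.06 against 11.09 ± 0.10. Directions below are those of the labels. RECK was not higher under the construct labels: it was at 7.76 ± 0.03 with EV and 7.79 ± 0.02 with RECK in MDA-MB-231 and at 7.998 ± 0.06 and 7.58 ± 0.26 in LM24175, differences of 0.03 and -0.42 that did not pass the test (limma adjusted p = 0.965 and 0.188). Whether its probe set can read the construct is not given in the sources used here, and arrays named RECK below are those labelled with the construct. The median level of an array lay between 6.42 and 6.56, and arrays of a group correlated at 0.994 to 0.998 across probe sets. The mean level of 7 fibroblast markers was 12.04 to 12.82 on the Hs343T and Hs606T arrays and 5.92 to 7.57 on the others, while 4 leukocyte and 3 endothelial markers averaged 4.23 to 5.54 on all arrays. The mean of 6 epithelial markers was 6.45 to 6.96 on the Hs343T and Hs606T arrays and 8.28 to 8.65 on the others. Of the 42 histone probe sets, 17 had a mean level below 4.65, the lower quartile of all probe sets. No detection calls were used here. Levels of different probe sets are not compared. By the suffixes of their names, 30 probe sets are plain (at), 5 (s_at) hold probes shared by several transcripts and 7 (x_at) hold probes that may bind other sequences. The plain suffix does not show that a probe set reads 1 gene, since 11 of the 20 probe sets annotated to several symbols with histone genes among them carry it too. Histone genes of a family are near copies of each other, so signal from another copy cannot be told apart. How the RNA was primed for labelling is not given in the sources used here, and stem-loop and polyadenylated mRNAs cannot be told apart.

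The promoters of the members that the results turn on are shown first, because many H2A and H2B promoters hold an octamer that was found in no H1, H3 or H4 promoter searched. Each line holds the 150 bases before the RefSeq transcription start in GRCh38.p14, read in the direction of the gene. Capitals mark the octamer ATTTGCAT, CCAAT and TATAAA on either strand. The regions are chr1:149886683-149886832 (minus strand), chr6:27132796-27132945 (minus strand), chr6:27146859-27147008 (minus strand), chr6:26124022-26124171 (plus strand), chr6:26216771-26216920 (plus strand), chr6:26285535-26285684 (minus strand) and chr6:26056471-26056620 (minus strand).
H2BC21: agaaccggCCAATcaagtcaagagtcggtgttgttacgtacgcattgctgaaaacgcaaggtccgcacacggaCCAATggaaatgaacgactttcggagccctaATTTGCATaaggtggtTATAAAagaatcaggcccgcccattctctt
H2BC11: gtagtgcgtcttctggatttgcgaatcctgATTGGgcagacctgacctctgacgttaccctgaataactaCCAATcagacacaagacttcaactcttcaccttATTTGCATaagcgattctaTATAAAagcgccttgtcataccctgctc
H2BC12: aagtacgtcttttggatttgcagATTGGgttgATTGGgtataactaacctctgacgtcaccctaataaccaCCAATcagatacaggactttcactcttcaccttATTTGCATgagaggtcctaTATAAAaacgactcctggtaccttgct
H2AC6: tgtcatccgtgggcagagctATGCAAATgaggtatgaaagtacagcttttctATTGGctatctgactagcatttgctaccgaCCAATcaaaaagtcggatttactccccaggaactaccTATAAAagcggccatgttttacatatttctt
H2AC8: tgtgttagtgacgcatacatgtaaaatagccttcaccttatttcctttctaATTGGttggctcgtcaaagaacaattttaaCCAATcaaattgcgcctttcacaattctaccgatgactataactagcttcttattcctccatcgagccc
H4C8: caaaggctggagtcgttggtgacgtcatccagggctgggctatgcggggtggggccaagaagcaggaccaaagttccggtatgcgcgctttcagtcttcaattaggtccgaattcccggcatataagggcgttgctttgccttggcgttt
H1-2: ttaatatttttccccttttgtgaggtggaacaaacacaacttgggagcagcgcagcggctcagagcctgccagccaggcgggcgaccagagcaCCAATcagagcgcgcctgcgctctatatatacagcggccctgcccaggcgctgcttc
In the H2B genes H2BC21, H2BC11 and H2BC12 the octamer begins at positions -46, -47 and -46, counting back from -1 at the base before the start. In H2AC6 its reverse, ATGCAAAT, begins at position -130. Within the 150 bases shown, H2AC8 and H1-2 hold CCAAT without the octamer, and H4C8 holds none of the marked motifs. RefSeq promoters were at hand for 39 of the 41 genes. In the 250 bases before the start, the octamer was found in 14 of these 39 (35.9%), 6 of 8 H2A genes and 8 of 11 H2B genes, against 1.66% of 27305 promoters. Neighbouring genes that start in opposite directions can share bases of their windows. The octamers counted for H2AC17 and H2BC17 are the same stretch, so the matches are not all separate sites. Among the H2A genes, only H2AC4, H2AC6 and H2AC17 hold it within 150 bases of the start. Matches of different motifs may share bases at their ends. CCAAT was found in 84.6% of the members and 33% of all promoters, and TATAAA in 66.7% and 11.1%. A match is a stretch of letters and not a measured binding site.

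In Hs343T, 5 histone probe sets were higher and 2 lower under the siRECK label than under the siSCR label, at an adjusted p under 0.05 in limma. That is 16.7% of the members, against 24.7% of all 22215 probe sets tested. Per direction, 10.4% of all probe sets were higher and 14.3% were lower. The median difference of the members was -0.01 on the log2 scale, beside -0.05 over all probe sets, with 20 differences above 0 and 22 below. By family, 4 of 8 H2A, 2 of 12 H2B and 1 of 8 H4 probe sets passed, and none of the 7 H1 or 7 H3 probe sets did. Of these H1 and H3 probe sets, 3 had an unadjusted p under 0.05: H1-6, H3C6 and H3C8. The share of all probe sets with an unadjusted p under 0.05 is not given, here or for the comparisons below. Unadjusted counts are therefore not results about the histone genes in particular.

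H2BC21, an H2B gene of the chromosome 1 cluster, had the largest difference. Its levels were 8.46 and 8.52 with siSCR and 9.98 and 10.12 with siRECK. Both siRECK arrays thus stood well above both siSCR arrays, and above all other arrays of the series. The difference was 1.56 (SE 0.17), or 2.94-fold with a 95% interval of 2.26 to 3.82 (limma adjusted p = 2.77e-05).

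H4C8, an H4 gene, was at 7.33 and 7.28 with siSCR and at 8.67 and 8.50 with siRECK. The groups did not overlap, and the rise was 2.42-fold (95% interval 1.79 to 3.28, limma adjusted p = 0.000435). Of 5 probe sets annotated to the same 14 H4 genes, H4C8 among them, 2 fell, by 1.45 and 0.47 on the log2 scale, and 3 did not pass, at -0.03, 0.05 and 0.27.

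H2AC6, an H2A gene, was at 11.14 and 11.06 with siSCR and at 11.79 and 11.82 with siRECK. The arrays within a group lay close together and the groups far apart. The rise was 1.63-fold (95% interval 1.35 to 1.96, limma adjusted p = 0.000974). H2BC21, H4C8 and H2AC6 kept their calls with each of the 16 arrays left out in turn. All 3 are read by shared (s_at) probe sets, of which 3 of 5 passed, beside 3 of 30 plain and 1 of 7 x_at probe sets.

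The other 4 calls hung on single arrays. H2BC11 was at 5.28 and 4.83 with siSCR and at 5.68 and 5.84 with siRECK, a difference of 0.71 (SE 0.21, limma adjusted p = 0.0294) that lost its call without siSCR array 2, siRECK array 1 or siRECK array 2. H2AC14, whose probe set is x_at, rose by 0.34 (adjusted p = 0.0325) and lost its call without any 1 of the 4 Hs343T arrays. H2AC8 fell from 5.85 and 5.94 to 5.40 and 5.55, a difference of -0.42 (SE 0.10, adjusted p = 0.0071) that lost its call without siSCR array 2 or siRECK array 1. H2AC16, at 3.35 to 4.03 on these arrays and so below the lower quartile, fell by 0.39 (adjusted p = 0.0415) and lost its call in 13 of 16 leave-outs. Without siRECK array 1 only 3 of the 42 probe sets passed, and 4 passed without siSCR array 2. With the pair of deviating invasive-line arrays described below left out of the fit, the histone count rose. The share of all probe sets passing in that fit is not given here.

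**Figure D1:**
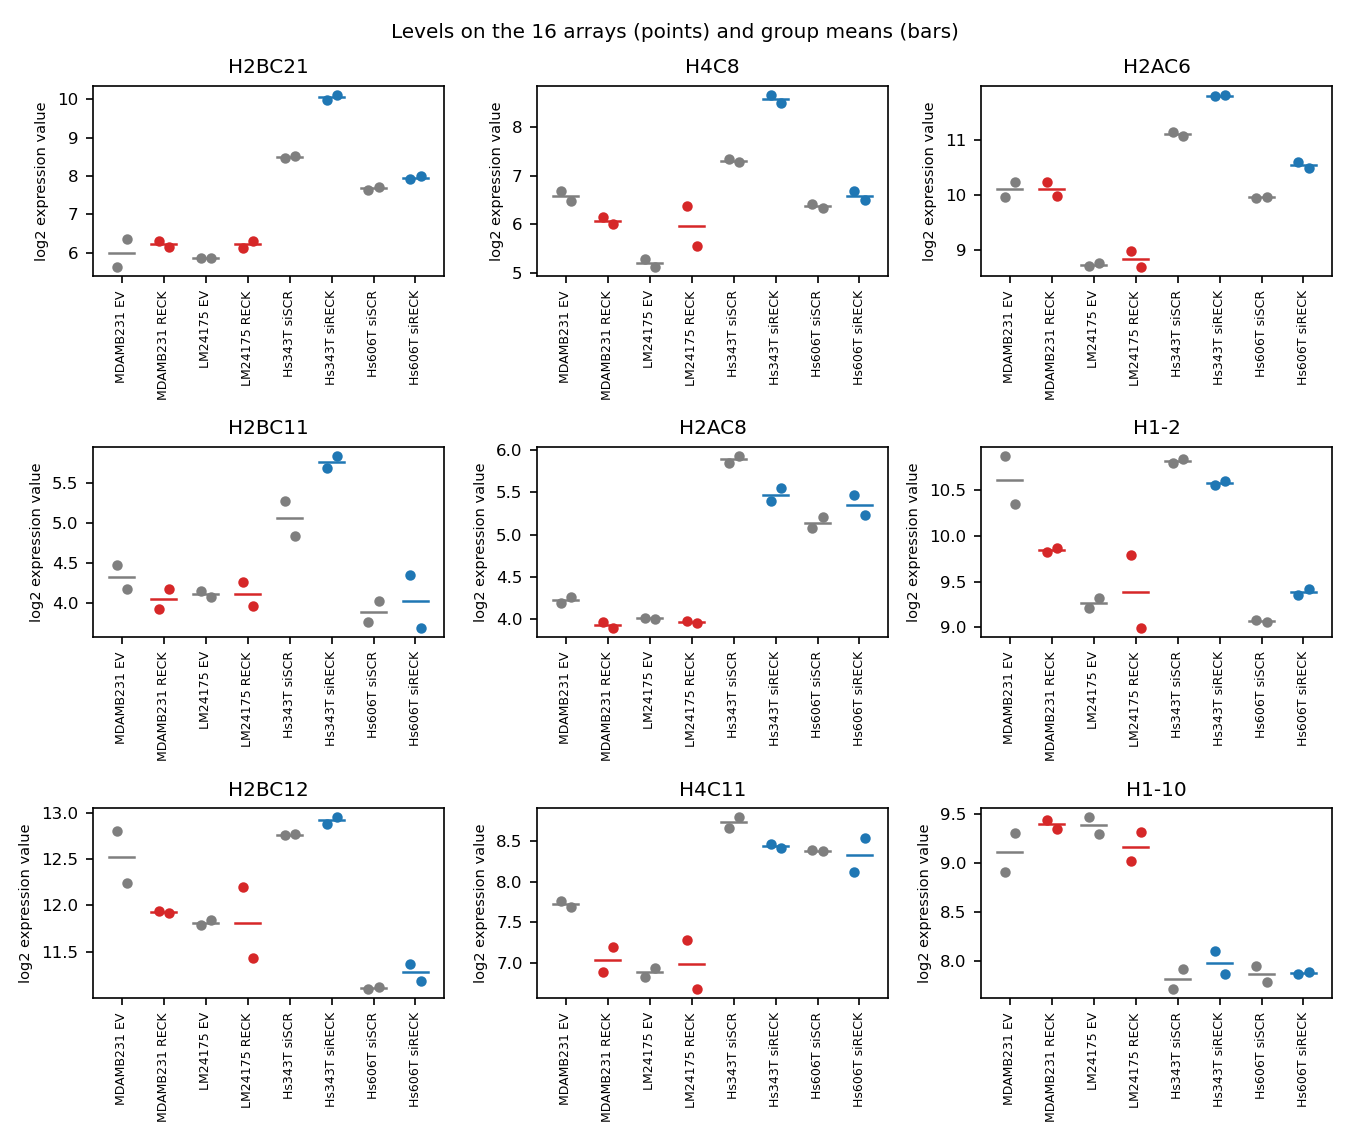
Log2 level (vertical axis) of 9 histone probe sets on the 16 arrays, by group; points are arrays, bars are group means, and gray, red and blue mark controls, construct and siRECK arrays. H2BC21, H4C8 and H2AC6 are highest on the 2 Hs343T arrays labelled siRECK, and the 2 arrays of MDAMB231 EV and of LM24175 RECK stand apart for H1-2 and H2BC12.

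Members that did not pass in Hs343T ranged from -0.58 for H2BC3 to 0.46 for 1 of the H2BC5 probe sets. The 2 H2BC5 probe sets, both x_at, gave 0.44 and 0.46 there. H1-2, a linker histone with a known polyadenylated mRNA, differed by -0.24, H2BC12 by 0.15, and the replication-independent H1-10 by 0.17. Of the 5 measured genes known for polyadenylated mRNAs, H2BC21 and H2AC6 passed and H1-2, H2BC5 and H2BC12 did not. That list was drawn up with earlier results of these arrays known, and its count is a description. The brighter H2BC5 probe set did pass with the trend and robust options of eBayes and with the Hs343T arrays fitted alone. The dimmer H2BC5 probe set passed with the Hs343T arrays fitted alone. The 3′ minus 5′ difference of the control probe sets, a sign of RNA integrity, was 1.49 to 1.55 for ACTB on the siSCR arrays and 1.56 to 1.60 on the siRECK arrays, and 0.36 to 0.39 against 0.43 to 0.48 for GAPDH. Of the epithelial markers 3 of 6 fell in Hs343T, the keratins KRT18 by 1.08, KRT19 by 0.92 and KRT8 by 0.64, and none of the 7 fibroblast markers passed. Of the leukocyte markers 1 of 4 fell, and of the endothelial markers 1 of 3. The part of these values in the histone differences was not tested. In bulk RNA, a change in the share of cells in S phase and a change in histone mRNA per cell cannot be told apart.

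The gene lists related to histones are given beside the members, with no test of the lists against them. In Hs343T, of 42 measured DNA replication and G1/S genes, 25 fell and 2 rose with siRECK, with a median difference of -0.55. The lowest were GINS2, a subunit of the replicative helicase, at -1.52, MCM10, an initiation factor, at -1.51, and RFC4, of the clamp loader, at -1.35. The 2 that rose were TIPIN, of the fork protection complex, at 1.66 and POLA2, a subunit of DNA polymerase alpha, at 0.83. Of 16 genes of histone mRNA processing and decay, 3 rose and 5 fell. EXOSC9, of the RNA exosome, rose by 1.66, CSTF3, a cleavage factor of polyadenylation, by 0.54 and CASP8AP2, known as FLASH in histone 3′ end processing, by 0.48. The cap-binding gene NCBP2 fell by 0.54, ZNF473, a partner of the U7 particle, by 0.49 and coilin (COIL) by 0.48. SLBP, named here after its value was seen, fell by 0.25 (limma adjusted p = 0.0438). Of 14 regulators of histone transcription, 2 rose and 2 fell: NPAT, the coactivator at histone promoters, rose by 0.88 and NFYA, of the CCAAT-binding factor, by 0.38, while CCNE1 fell by 0.60 and E2F3 by 0.43.

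Of 21 chaperone genes, 9 fell and 3 rose in Hs343T. HJURP, the chaperone of centromeric H3, fell by 2.02, ASF1B, an H3-H4 chaperone, by 0.91 and the importin IPO4 by 0.65. HIRA and its partner CABIN1, which deposit the replacement histone H3.3, rose by 0.62 and 0.55, and NASP rose by 0.58. Of 8 replacement histone genes, 4 fell, led by H2AZ1 at -1.33, H2AX at -0.997 and H2AZ2 at -0.75. The median differences were -0.26 for the chaperones, -0.45 for the replacement histones, -0.08 for the processing genes and 0.02 for the regulators, beside -0.01 for the histone probe sets.

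**Figure D2:**
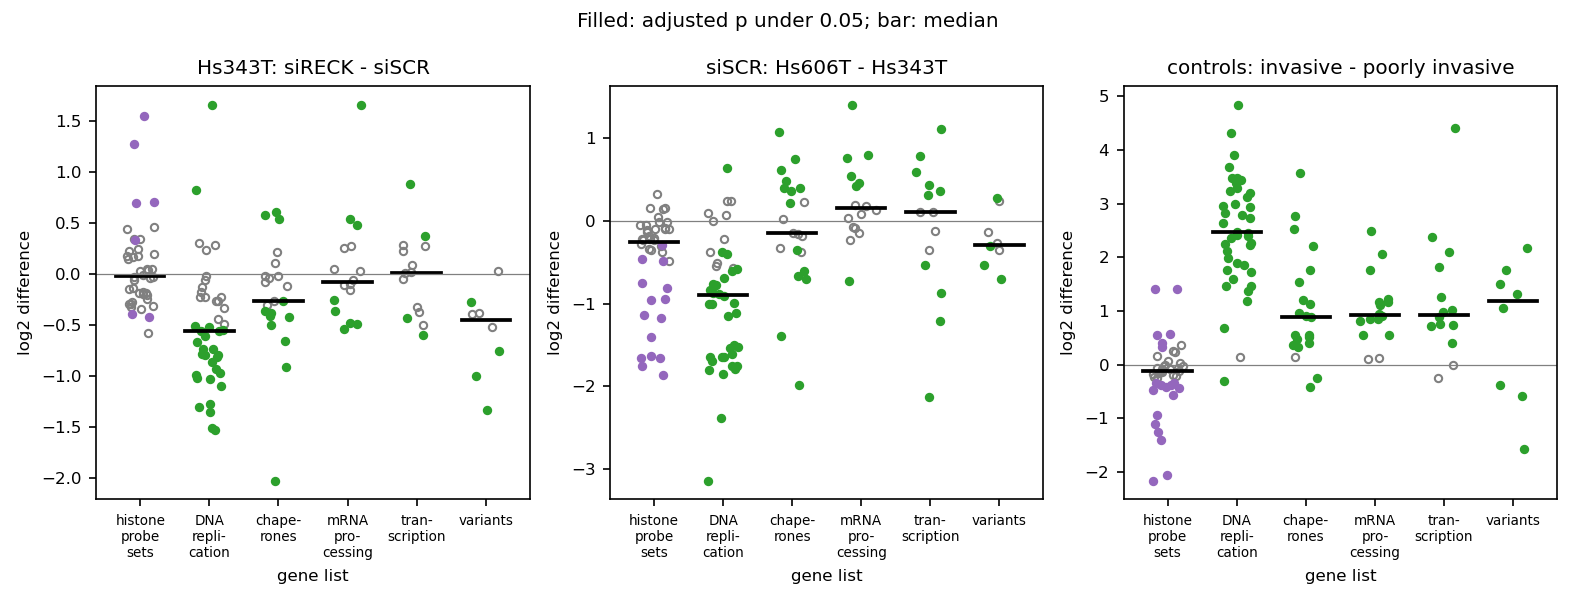
Log2 differences (vertical axis) of the histone probe sets and of 5 related gene lists in 3 comparisons; filled points passed at an adjusted p under 0.05 and bars are medians. In Hs343T the DNA replication genes have a median of -0.55 and the histone probe sets one of -0.01, and in the control arms of the invasive against the poorly invasive lines the medians are 2.46 and -0.13.

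In Hs606T no histone probe set passed between siRECK and siSCR in limma, beside 0.846% of all probe sets. Unadjusted, 1 was higher and 1 lower at p under 0.05, and the median was 0.01 beside -0.01 over all. H2AC6 came closest: its levels were 9.96 and 9.97 with siSCR and 10.60 and 10.49 with siRECK, a difference of 0.58 (SE 0.12, limma adjusted p = 0.0546). The groups did not overlap, and the call was made in 4 of the 16 leave-outs, without either MDA-MB-231 EV array or either LM24175 RECK array. H2BC21 was at 7.65 and 7.72 against 7.91 and 7.99, a difference of 0.27, with no overlap. The remaining genes with known polyadenylated mRNAs differed by 0.17 (H2BC12), 0.31 (H1-2) and 0.29 and 0.32 (H2BC5), and H1-10 by 0.01. Among the related lists, TK1, the S-phase thymidine kinase, was alone in passing, at 0.61. Of the epithelial markers KRT18 rose by 0.86, and its part was not tested.

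The siRNA responses themselves were compared as the Hs606T difference minus the Hs343T difference. There 3 of 42 histone probe sets passed, beside 16.3% of all probe sets, with a median of -0.02 beside 0.03. The rise of H2BC21 was smaller in Hs606T by 1.29 (SE 0.25, limma adjusted p = 0.0031). That of H4C8 was smaller by 1.06 (SE 0.28, adjusted p = 0.0234), a call lost in 6 of 16 leave-outs: each Hs343T siSCR array, siRECK array 1 of Hs343T, each Hs606T siSCR array and siRECK array 2 of Hs606T. The response of H2AC8 was higher in Hs606T by 0.62 (SE 0.14, adjusted p = 0.0082). Without Hs343T siRECK array 2 the count was 5. For H2AC6 the responses of 0.70 and 0.58 were not told apart by the test. Of the DNA replication genes 18 had a higher response in Hs606T and 2 a lower one.

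The construct comparisons in the invasive lines held no histone call. In MDA-MB-231 0 of 42 probe sets passed in limma, beside 0.239% of all probe sets. Unadjusted, 10 had a p under 0.05, and all 10 were lower with the construct. Without the unadjusted share of all probe sets, that count cannot be read as particular to the histone genes. The median of the members was -0.17 beside 0.00 over all, and 29 of 42 differences were below 0. H1-2 was at 10.88 and 10.35 with EV and at 9.83 and 9.87 with RECK, a difference of -0.77 (SE 0.21, limma adjusted p = 0.186). H4C11, an H4 gene with an x_at probe set, was at 7.76 and 7.69 against 6.89 and 7.20, a difference of -0.68 (adjusted p = 0.176). EV array 1 was the higher for each of these, and for H2BC12 too, at 12.80 and 12.24 with EV against 11.93 and 11.92 with RECK. Without EV array 2, 3 probe sets passed, and without LM24175 RECK array 1 or array 2 the count was 1.

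In LM24175 0 of 42 passed in limma, beside 4.41% of all probe sets, and unadjusted 4 were higher and 1 lower at p under 0.05. The median was 0.10 beside 0.00, and 32 of 42 differences were above 0. That median was -0.03 without RECK array 1 and 0.25 without RECK array 2. H4C8 was at 5.28 and 5.11 with EV and at 6.37 and 5.54 with RECK. The RECK arrays lay above the EV arrays but 0.83 apart, and the difference was 0.76 (SE 0.20, limma adjusted p = 0.0539). Without RECK array 2 a total of 2 probe sets passed, and without either MDA-MB-231 EV array the count was 1. H2BC21 was at 5.87 and 5.85 against 6.13 and 6.31, a difference of 0.36. In both invasive lines the related lists held a single call, the chromatin remodeller ATRX, at 0.45 in LM24175. The median difference of the 42 DNA replication genes was -0.21 in MDA-MB-231, with 40 of them below 0. In LM24175 it was -0.10, with 30 below 0. Of the 7 fibroblast markers, 2 were higher with the construct in LM24175, COL1A2 at 5.02 with EV and 7.23 with RECK and COL3A1 at 3.92 and 5.43, and none passed in MDA-MB-231. Their part in the histone values was not tested.

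**Figure D3:**
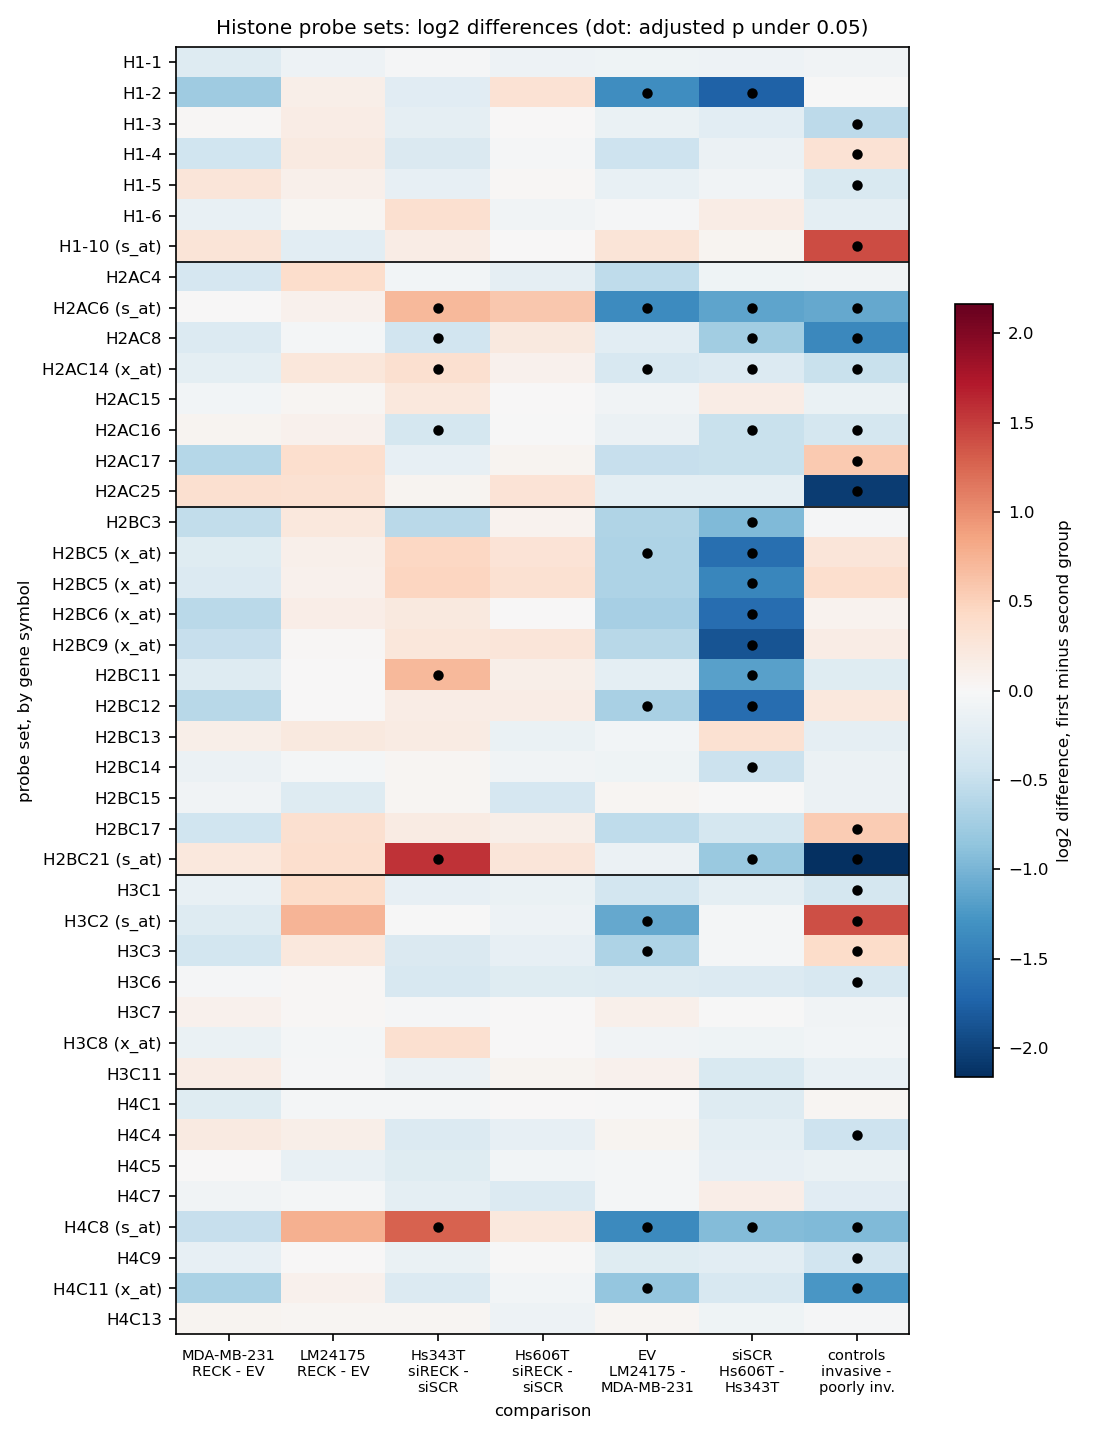
Log2 differences of the 42 histone probe sets (rows, by family and symbol) in 7 comparisons (columns), on a colour scale from blue (lower) through white to red (higher); dots mark an adjusted p under 0.05. No dot falls in the 2 construct columns or in Hs606T, 7 fall in Hs343T, and in the control arms of the poorly invasive lines 9 of 12 H2B probe sets are lower in Hs606T.

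The responses to the construct were set against each other as the LM24175 difference minus the MDA-MB-231 difference. Only H4C8 passed, 1 of 42 beside 2.62% of all probe sets, at 1.27 (SE 0.28, limma adjusted p = 0.0381). That call was lost in 13 of 16 leave-outs, under quantile normalization and with the 8 invasive-line arrays alone, and the value was 0.75 without the deviating arrays. The count rose to 7 without LM24175 RECK array 2 and to 6 without MDA-MB-231 EV array 2. The members' median was 0.19 beside 0.01.

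Array 1 of MDA-MB-231 EV and array 1 of LM24175 RECK stood above their replicates for histone genes. In MDA-MB-231 EV the median gap between array 1 and array 2 was 0.15 over the 42 probe sets and 0.02 over all probe sets. There 32 probe sets were higher on array 1, and 10 of them by over 0.5, beside 3.15% of all probe sets. In LM24175 RECK the median gap was 0.25, 32 were higher and 10 by over 0.5, beside 2.39% of all. In the other 6 groups the members' median gap lay between -0.06 and 0.00 and at most 3 probe sets were higher by over 0.5. In MDA-MB-231 EV the highest gaps were 1.23 for H3C2, at 6.56 and 5.32, and 0.98 for H2BC3, and in LM24175 RECK they were 0.83 for H2AC17 and for H4C8. H2BC21 ran the other way in MDA-MB-231 EV, at 5.63 on array 1 and 6.35 on array 2. The mean level of the DNA replication genes was 9.79 and 9.50 on these MDA-MB-231 arrays and 9.77 and 9.58 on those of LM24175. The part of these gaps in the construct differences was not tested beyond leaving the arrays out. Without both arrays, the difference of H1-2 with the construct was -0.50 in MDA-MB-231 and -0.27 in LM24175.

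**Figure D4:**
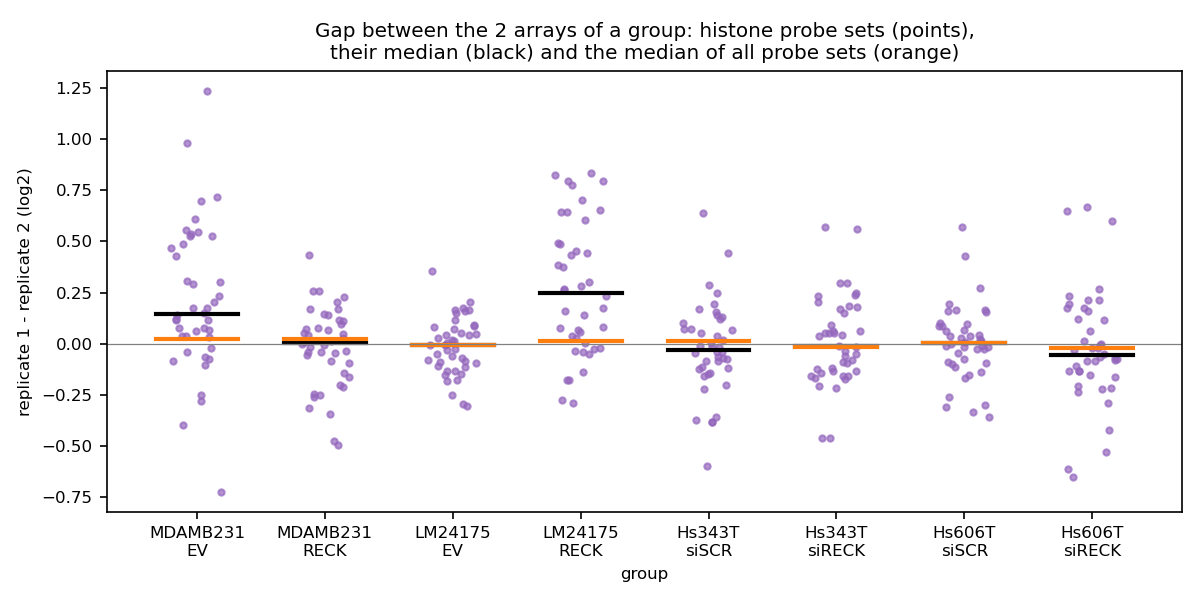
Level on array 1 minus level on array 2 (vertical axis, log2) of the 42 histone probe sets in each of the 8 groups, with their median in black and that of all probe sets in orange. The medians are 0.15 in MDAMB231 EV and 0.25 in LM24175 RECK and lie between -0.06 and 0.00 in the other groups.

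Between the control arms of the invasive lines, 9 of 42 histone probe sets (21.4%) were lower in LM24175 EV than in MDA-MB-231 EV, and none was higher in limma, adjusted or at an unadjusted p under 0.05. Of all probe sets 16.3% passed and 8.66% were lower. The members' median was -0.22 beside -0.01, and 36 of 42 differences were below 0. H2AC6 was at 9.96 and 10.25 in MDA-MB-231 and at 8.72 and 8.77 in LM24175, 2.57-fold lower (95% interval 2.14 to 3.10, limma adjusted p = 1.7e-05). H4C8 was 2.61-fold lower, at 6.68 and 6.48 against 5.28 and 5.11. H1-2 was 2.55-fold lower, at 10.88 and 10.35 against 9.21 and 9.32. These 3 kept their calls with each array left out. H3C2, an H3 gene, differed by -1.11, H4C11 by -0.84, H2BC12 by -0.71 and 1 of the H2BC5 probe sets by -0.67. H3C2 and that H2BC5 probe set lost their calls without MDA-MB-231 EV array 1, LM24175 EV array 1 or LM24175 EV array 2, H4C11 without LM24175 EV array 1, and H2BC12 in 13 of 16 leave-outs. Without MDA-MB-231 EV array 1 the difference was -0.50 for H3C2 and -0.43 for H2BC12. The count was 3 without LM24175 EV array 1 and 5 without LM24175 EV array 2 or without MDA-MB-231 EV array 1. These comparisons share the EV arrays with the construct comparisons above. Of the DNA replication genes 5 were higher and 1 lower in LM24175. Of the cell type markers COL1A1 was higher there by 3.21, KRT19 differed by -1.51 and 1 of 3 endothelial markers was higher, and their part was not tested.

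Between the scrambled-siRNA arms of the poorly invasive lines, 15 of 42 histone probe sets (35.7%) were lower in Hs606T than in Hs343T, 9 of them of H2B genes. None was higher in limma, adjusted or at an unadjusted p under 0.05. Of all probe sets 31.5% passed and 15.2% were lower. The members' median was -0.26 beside -0.03, and 37 of 42 differences were below 0. Of the 12 H2B probe sets 9 were lower, with a median of -1.06, beside 4 of 8 H2A, 1 of 7 H1, 1 of 8 H4 and 0 of 7 H3 probe sets. Of the H3 probe sets 1 had an unadjusted p under 0.05 in limma. H2BC9 was at 8.98 on both Hs343T arrays and at 7.20 and 7.04 in Hs606T, 3.64-fold lower (95% interval 2.67 to 4.95). H2BC6 was 3.15-fold lower, at 10.28 and 10.37 against 8.70 and 8.64. H2BC12 was also 3.15-fold lower, at 12.75 and 12.77 against 11.09 and 11.12. The H2BC5 probe sets differed by -1.64 and -1.41. Since H2BC5, H2BC6 and H2BC9 are read by x_at probe sets, and 5 of 7 such probe sets passed, the signals of these genes cannot be told apart.

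Outside the H2B family, H1-2 was at 10.80 and 10.84 in Hs343T and at 9.08 and 9.06 in Hs606T, 3.36-fold lower (95% interval 2.45 to 4.61, limma adjusted p = 4.7e-05). H2AC6 differed by -1.14 on the log2 scale, at 11.14 and 11.06 against 9.96 and 9.97, and H2BC21 was 1.75-fold lower. For H2AC6 and H2BC21 the arrays of the lines did not overlap. H1-2, H2AC6, H2BC21, H2BC5, H2BC6, H2BC9 and H2BC12 kept their calls with each array left out. The same held for H4C8, H2AC8 and H2BC11, while H2AC14, H2AC16, H2BC3 and H2BC14 did not keep theirs. Among the probe sets that passed, those of H2BC11, H2BC14 and H2AC16 had a mean level below the lower quartile of all probe sets. The mean ACTB 3′ minus 5′ difference was 1.52 in Hs343T and 1.25 in Hs606T with siSCR. Of the epithelial markers 2 were higher and 2 lower in Hs606T, 2 fibroblast markers were higher and 1 leukocyte marker was lower. The part of these values was not tested. In the same comparison 31 of 42 DNA replication genes were lower in Hs606T and 1 higher, with a median of -0.90, 6 of 16 processing genes were higher and 1 lower, and 8 of 21 chaperone genes were higher and 6 lower. This comparison shares the Hs343T siSCR arrays with the Hs343T siRNA comparison.

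When the control arms of both invasive lines were set against those of both poorly invasive lines, 6 histone probe sets were higher and 14 lower, 47.6% of the members beside 68.4% of all probe sets. Over all probe sets 31.5% were higher and 36.9% lower. Each kind is 2 lines, and the test takes its spread from arrays within groups. Its p-values and intervals therefore do not measure the spread between lines of a kind. The members' median was -0.13 beside -0.08. The vector or siRNA treatment and the fibroblast markers above, all 7 of them lower in the invasive lines, differ along with the kind of line and cannot be told apart from it. VIM was high in both kinds, with means of 14.38 (MDA-MB-231 EV) and 14.18 (LM24175 EV) against 14.48 (Hs343T siSCR) and 14.44 (Hs606T siSCR). Of the 6 epithelial markers 3 were higher in the invasive lines (EPCAM, KRT8 and KRT18) and 1, CDH1, lower. The mean ACTB 3′ minus 5′ difference was 0.83 in MDA-MB-231 EV and 0.91 in LM24175 EV against 1.52 and 1.25 in the siSCR arms, and its part was not tested. Among the DNA replication genes 40 of 42 were higher in the invasive lines and 1 lower, with a median of 2.46, and 14 of 16 processing genes and 12 of 14 regulators were higher.

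H2BC21 had the most negative difference, at 5.63, 6.35, 5.87 and 5.85 on their EV arrays and at 8.46, 8.52, 7.65 and 7.72 on the siSCR arrays. No invasive array reached the poorly invasive ones, and the difference was 4.48-fold (95% interval 3.72 to 5.39, without the spread between lines). H2AC25, an H2A gene of the other chromosome 1 locus, was 4.14-fold lower, at 5.14 to 5.69 against 7.15 to 7.50. H2AC8 was 2.64-fold, H4C11 2.38-fold and H2AC6 2.16-fold lower. H1-10 led in the other direction, at 8.91 to 9.47 on the EV arrays and 7.71 to 7.95 on the siSCR arrays, 2.65-fold higher (95% interval 2.26 to 3.10). H3C2 was 2.64-fold higher, at 6.56 and 5.32 in MDA-MB-231 and 4.75 and 4.90 in LM24175 against 3.79 to 4.13. H2AC17, H2BC17 and H3C3 were higher by 0.57, 0.55 and 0.40 on the log2 scale. For H2AC17 and H2BC17 the call was lost without MDA-MB-231 EV array 1.

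H2AC17 and H2BC17 are a divergent pair, with starts 240 bases apart on chromosome 6, as are H2AC14 with H2BC14 (245 bases) and H2AC15 with H2BC15 (194 bases). With the construct, H2AC17 and H2BC17 differed by -0.61 and -0.43 in MDA-MB-231 and by 0.37 and 0.35 in LM24175, none of which passed. Between the EV arms they differed by -0.50 and -0.55. H2AC17 was higher on array 1 than on array 2 by 0.54 in MDA-MB-231 EV and by 0.83 in LM24175 RECK, and H2BC17 by 0.47 and 0.38. The mean level of H2BC17 lay below the lower quartile of all probe sets, as did those of H2BC14, H2AC15 and H2BC15.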

How the data were processed

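The authors hybridized total RNA of 16 samples to Affymetrix U133 2.0 arrays. The deposited values are log2 per probe set, made by the authors after import of the scanner files to Partek, according to the submitters' processing notes. Version, summary and scaling are not stated there, and the log base follows from the range of the values. Symbols come from the platform annotation. With 62 control probe sets left out, 22215 were tested in 1 limma 3.58.1 fit (R 4.3.3, lmFit and eBayes) of the 8 group means. The fit had 8 residual degrees of freedom, 3.98 prior ones, and a median SD of 0.134 for the residuals. Tests were 2-sided, with p-values adjusted over all 22215 by Benjamini and Hochberg and a threshold of 0.05 for the adjusted p. Each interval given is the 95% interval of this fit. The number of arrays limits the precision, and arrays give no read depth.

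The members, gene lists and rules were chosen with earlier results of these data known. The text names up to 10 passing members per direction in a treatment comparison and up to 5 in the others, the genes known for polyadenylated mRNAs (H2BC4 is not analysed here), H1-10, and up to 3 passing genes per direction of each related list, using each gene's brightest probe set. Alternatives were quantile normalization, centring on array medians, 1 probe set per gene, no x_at probe sets, no probe sets below the 0.25 quantile of mean level, eBayes with trend and robust, own arrays only, a replicate block, a minimum of 1.5-fold, and leaving out each array or both deviating arrays. The script was tested on simulated data. RefSeq promoters (GRCh38.p14) were searched on both strands for ATTTGCAT, CCAAT and TATAAA. Tables were made with pandas 2.3.3 and numpy 2.4.6 in Python 3.11.15, and figures with matplotlib 3.10.9.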

Additional observations from a re-analysis of the deposited data

Results flagged for a closer look

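For 4 results the response to a treatment differed between 2 lines by a direct test of that difference in limma. The response of H4C8 to the construct was higher in LM24175 than in MDA-MB-231 by 1.27 on the log2 scale, at 0.76 and -0.51. The response of H2BC21 to siRECK was lower in Hs606T than in Hs343T (-1.29), at 0.27 and 1.56, and that of H4C8 likewise (-1.06), at 0.22 and 1.28. The response of H2AC8 to siRECK was higher in Hs606T by 0.62, at 0.20 and -0.42. The calls of H4C8 depended on single arrays, as given with the results, and those of H2BC21 and H2AC8 held with each array left out.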

How the results depend on the processing

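Counts are of the 42 histone probe sets passing in limma. Counts over all probe sets change with the setting too and are not given beside them, here or for arrays left out. A changed count is therefore not a result about the histone genes in particular. In LM24175 with the construct the count of 0 became 1 after centring and with 1 probe set per gene. It was also 1 without dim probe sets and with trend and robust. Leaving out both deviating arrays leaves a single array in LM24175 RECK and in MDA-MB-231 EV. In that fit H2BC21 was at 0.44 and H2BC12 at -0.39 in LM24175, which are opposite directions. H1-2 was at -0.50 in MDA-MB-231 there, beside -0.77 in the main fit. In Hs343T the 7 became 4 at a minimum of 1.5-fold and 11 without both deviating arrays. In Hs606T the 0 became 1 with 1 probe set per gene, without dim probe sets, with trend and robust and without both deviating arrays. For the difference between construct responses the 1 became 0 under quantile normalization, with own arrays only and without both deviating arrays. For the invasive against the poorly invasive lines the 20 became 8 at a minimum of 1.5-fold.

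Leaving out each array in turn, the counts ranged from 0 to 3 in MDA-MB-231, 0 to 2 in LM24175, 3 to 8 in Hs343T, 0 to 1 in Hs606T, 0 to 7 for the difference between construct responses, 2 to 5 for that between siRNA responses, 3 to 13 for the invasive control arms, 13 to 16 for the poorly invasive ones and 18 to 22 for both kinds of line.

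Some differences that had not passed changed sign. In MDA-MB-231 with the construct H2BC21 was at -0.13, H2AC6 at -0.13 and H2BC5 (the dimmer probe set) at 0.056 without both deviating arrays, and H2AC6 was at -0.010 after centring. Over single arrays left out they ranged from -0.13 to 0.60, -0.13 to 0.15 and -0.66 to 0.056. In LM24175 without both deviating arrays H1-2 was at -0.27, H2BC12 at -0.39, the H2BC5 probe sets at -0.21 and -0.26 and H2AC6 at -0.044. Over single arrays these ranged from -0.27 to 0.52, -0.39 to 0.39, -0.21 to 0.43, -0.26 to 0.45 and -0.044 to 0.24. H1-10 in Hs606T was at -0.029 under quantile normalization and at -0.072 to 0.092 over single arrays. Of the other values of single probe sets 142 lost a call, 24 gained one and 1883 kept side and direction. The cause was not tested.

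Within a line no pairing by replicate number was seen: deviations of same-numbered arrays correlated at 0.01, -0.04, -0.05 and 0.00 in the 4 lines. Between lines, the deviations of MDA-MB-231 EV and LM24175 RECK, the groups of the deviating arrays, correlated at 0.449. The cause was not tested. With the replicate block 1 probe set passed in LM24175, 7 in Hs343T, 13 between the invasive control arms and 14 between the poorly invasive ones.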

Other observations

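A further 20 probe sets carry several symbols that include histone genes and lie outside the rule. In Hs343T 6 of them were higher and 3 lower with siRECK in limma, 45% of the 20 beside 24.7% of all probe sets. The 3 probe sets shared by H2AC18 and H2AC19, neighbouring copies of an H2A gene, rose by 1.21, 1.002 and 1.42 on the log2 scale. A probe set shared by H3C4 and H2AC7 rose by 0.86, and 1 of those shared by 5 H2B genes (H2BC4 among them) by 1.10. A probe set annotated to 10 H3 genes and H2AC7 rose by 1.15. Of 5 probe sets shared by 14 H4 genes 2 fell, by 1.45 and 0.47, and 1 shared by H2BC11 and H2BC8 fell by 0.96, while the single-symbol probe set of H2BC11 rose by 0.71.

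Between the siSCR arms of the poorly invasive lines 15 of the 20 shared probe sets (75%) were lower in Hs606T, with a median of -1.01. Of all probe sets 31.5% passed there and 15.2% were lower. In both construct comparisons and in Hs606T with siRECK 0 of 20 passed in limma. The shares of all probe sets were 0.239% in MDA-MB-231, 4.41% in LM24175 and 0.846% in Hs606T. Genes with shared probe sets cannot be told apart, so these values are not counted with the members.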
